A study of Mus musculus with 6 samples.

Results

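Myelin and Schwann cell genes of the cardiac nerves were described in the ventricular apex of mice from a study of a PR-M transgene. The samples were labelled PR-M expressing or PR-M non-expressing. PR-M is a human mitochondrial form of the progesterone receptor. The members were 7 genes, Mbp, Pmp22, Sox10, S100b, Cnp, Ngfr and Erbb3, of the 18193 genes that the platform annotation names singly. They were found by taking every probe set whose annotation gives 1 gene symbol equal to a listed member, which gave 22 of 45037 probe sets. A probe set is a group of short probes read together as 1 value. The gene names were selected on prior knowledge of the expressing minus non-expressing differences in these same 6 arrays, so the differences below describe the arrays and support nothing by themselves.

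Total RNA of heart tissue was hybridised to Affymetrix Mouse Genome 430 2.0 arrays, 1 array for each of 6 samples. By their labels 3 samples were PR-M expressing and 3 were PR-M non-expressing. All 6 samples came from animals given 2.5 mg of progesterone in oil under the skin for 19 to 21 days, so the hormone itself was not compared. The sources used here do not give the promoter of the transgene, the strain, age and sex of the animals, how expression was established or whether arrays are separate animals. The p-values set each group difference against the scatter of these 6 arrays, taken as independent. They therefore do not reach beyond these samples.

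Schwann cells are the glia of peripheral nerves, and in the heart they accompany the autonomic axons that run through the muscle. Some wrap an axon in myelin, a stack of membrane held together by proteins such as myelin basic protein, while most cardiac axons are carried in bundles by Schwann cells that make no myelin. The lineage is set by the transcription factor SOX10, and its survival depends on neuregulin from the axon, which is read by the receptor pair ERBB3 and ERBB2.

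The values are the deposited log2 expression values, in which a difference of 1 is a 2-fold change, and array medians lay between 5.78 and 5.79. All differences are expressing minus non-expressing. The heart label was borne out by 10 ventricular muscle genes, whose mean level was between 13.99 and 14.11 in every array. Of 11 atrial muscle genes 6 were higher and 5 lower, and Sln, Myl4 and Myl7 passed over all genes with differences of 3.89, 3.60 and 3.45, while the 5 lower ones differed by -0.12 to -0.03. The mean level of the 11 was 7.61 to 8.36 in the expressing and 6.70 to 6.94 in the non-expressing arrays. Control probe sets of 18S ribosomal RNA were at 8.08 to 8.50 and 9.57 to 10.3 in these groups, and beta-actin gave a 3′ minus 5′ signal, which reads RNA integrity, of 1.20 to 1.28 and 1.30 to 1.43. The same measure of Gapdh overlapped, at 0.101 to 0.222 and 0.163 to 0.299. The part of tissue sampling and of RNA quality in the results below was not tested. Sample titles carry 3 prefixes, of which 1 is that of all expressing arrays and the other two are those of non-expressing replicate 1 and of non-expressing replicates 2 and 3. Both groups occur under no prefix, which leaves no comparison between groups inside one; with the prefix as a random block the difference of Mbp probe set 1433532_a_at below was 0.887 (limma adjusted p 0.232).

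Of the myelin and Schwann cell genes, Mbp had the largest differences, from 0.24 to 0.88 on 5 of its 8 probe sets, and 1 dim probe set of S100b differed by 0.42. Of the 5 Mbp probe sets, 1456228_x_at, 1436201_x_at and 1454651_x_at were dim too, at 5.26 or lower in all arrays. All probe sets of Sox10, Pmp22, Cnp, Ngfr and Erbb3 had differences between -0.26 and 0.05. None of the 22 probe sets passed an adjusted p of 0.05 in limma (a linear model with a spread shared over all probe sets, Benjamini-Hochberg over 45037 probe sets), and 6 had an unadjusted p under 0.05. Over all probe sets 0.0133% passed and 12.2% had an unadjusted p under 0.05. No member gene passed in the test over genes with 1 probe set each either, where 0.066% of all genes did. In 7 of the 22 the 3 expressing arrays all lay above the 3 non-expressing arrays, as in 8.27% of all probe sets, and in 0 of them all lay below, as in 10.3% of all probe sets. Of these 7, 5 belong to Mbp and read 1 gene, so they do not count as separate cases. The median difference of the 22 was 0.01, against -0.02 over all probe sets, and that of the 14 outside Mbp was 0.01. In bulk tissue, fewer cells of a type and less RNA per cell cannot be told apart.

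**Figure D1:**
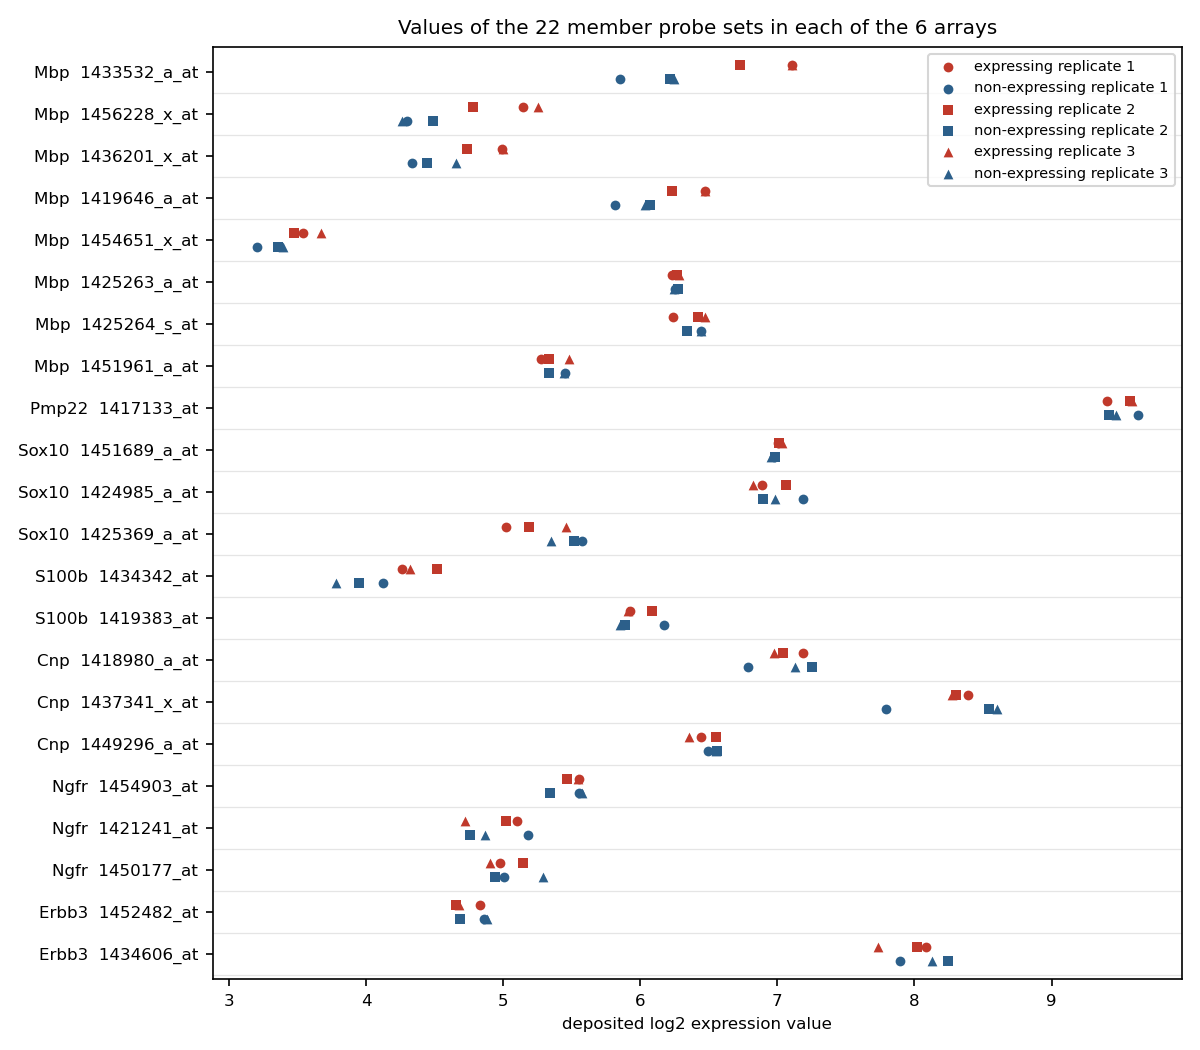
Each row is 1 probe set and each point 1 array on the deposited log2 scale, with the 3 PR-M expressing arrays in red and the 3 non-expressing arrays in blue (circle, square and triangle for replicates 1, 2 and 3). The groups are apart on the 5 upper Mbp rows and on 1 S100b row, and apart by a narrow margin on the first Sox10 row; on the other 15 rows they overlap.

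Mbp encodes myelin basic protein, which binds the inner faces of the myelin membrane together. Its brightest probe set by the mean of the 6 arrays was 1433532_a_at. It was at 7.11, 6.73 and 7.11 in the expressing arrays and at 5.85, 6.22 and 6.25 in the non-expressing arrays. In the non-expressing arrays alone its mean of 6.11 was below those of 1425264_s_at (6.41) and 1425263_a_at (6.26). The choice of this probe set for the gene therefore depended on the expressing arrays. On 1433532_a_at every expressing array was above every non-expressing array. The gap of 0.48 between the groups was wider than the range of 0.38 or 0.40 within them. The difference was 0.88 (SE 0.14, 95% interval 0.55 to 1.20), which is 1.84-fold, with group means of 6.98 ± 0.22 and 6.11 ± 0.22 (SD, n = 3 each). It did not pass, with a limma adjusted p of 0.113 over probe sets and 0.117 over genes. With 1 array left out it lay between 0.75 and 1.00.

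Another 4 Mbp probe sets lay the same way, all of them with smaller differences. On each of these 4 the gap between the groups, 0.077 to 0.29, was narrower than the wider range within a group. Probe set 1456228_x_at was at 5.15, 4.78 and 5.26 in the expressing and at 4.30, 4.49 and 4.26 in the non-expressing arrays, a difference of 0.71 (SE 0.13, limma adjusted p 0.134). Probe set 1436201_x_at read 4.993, 4.738 and 5.002 against 4.34, 4.45 and 4.65, a difference of 0.43 (limma adjusted p 0.224). On both, the endings mark probes that may also bind other transcripts. Probe set 1419646_a_at, whose ending marks several transcripts of 1 gene, read 6.47, 6.23 and 6.47 against 5.82, 6.07 and 6.04, a difference of 0.42 (limma adjusted p 0.21). The dimmest, 1454651_x_at, read 3.54, 3.47 and 3.67 against 3.20, 3.36 and 3.40, a difference of 0.24 (limma adjusted p 0.344). Its _x_at ending also marks probes that may bind other transcripts. Expressing replicate 2 was the lowest of the expressing arrays on all 5, and non-expressing replicate 1 was the lowest of the 6 arrays on 4 of them. On 1456228_x_at, the exception, the lowest was non-expressing replicate 3.

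The other 3 Mbp probe sets showed no such gap. Probe set 1425263_a_at was level, at 6.23, 6.27 and 6.28 in the expressing and 6.26, 6.28 and 6.25 in the non-expressing arrays, with a 95% interval of the difference from -0.16 to 0.16. Probe set 1425264_s_at was at 6.24, 6.42 and 6.47 against 6.45, 6.34 and 6.44, with an interval from -0.24 to 0.17. Probe set 1451961_a_at was at 5.28, 5.34 and 5.48 against 5.45, 5.34 and 5.44, with an interval from -0.24 to 0.15. Whether the 2 sets of Mbp probe sets differ was not tested, because the sets were formed after the values were seen. The Mbp locus also gives rise to Golli transcripts, which start upstream and are made outside myelin too; the sources used here do not say which transcripts each probe set reads. With the mean of all 8 probe sets in place of the brightest, the difference of Mbp was 0.325 (limma adjusted p 0.244).

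**Figure D2:**
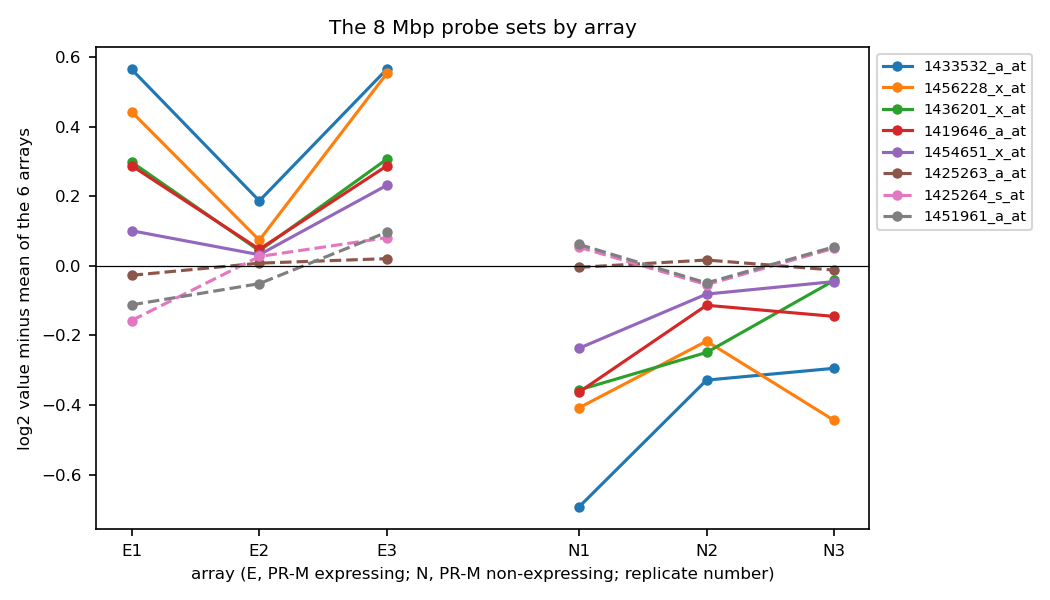
Deposited log2 value of each of the 8 Mbp probe sets minus its own mean over the 6 arrays, for the expressing arrays (E1 to E3) and the non-expressing arrays (N1 to N3); lines only join points of 1 probe set. The 5 solid lines lie above 0 in the expressing and below 0 in the non-expressing arrays with a dip at E2, and the 3 dashed lines stay near 0 in both groups.

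S100b encodes a calcium-binding protein that is abundant in Schwann cells and other glia. Its brighter probe set, 1419383_at, was at 5.93, 6.09 and 5.91 in the expressing and at 6.17, 5.89 and 5.85 in the non-expressing arrays. The groups overlapped, with non-expressing replicate 1 the highest of all 6, and the difference was 0.00 (95% interval -0.24 to 0.25, limma adjusted p 0.992). The dim probe set 1434342_at, with all arrays at 4.52 or lower, read 4.26, 4.52 and 4.32 against 4.12, 3.95 and 3.78. There the groups did not overlap, and the difference of 0.42 (SE 0.11, 95% interval 0.16 to 0.67) did not pass (limma adjusted p 0.235). The 2 probe sets of S100b therefore gave different sizes, and the difference between them was not tested.

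Sox10, the regulator that Schwann cells need throughout life and that directly activates myelin genes, has 3 probe sets. Probe set 1451689_a_at was at 7.00, 7.01 and 7.04 in the expressing and at 6.98, 6.98 and 6.95 in the non-expressing arrays. The groups did not overlap there, but by a margin of hundredths, and the difference was 0.05 (95% interval -0.11 to 0.21, limma adjusted p 0.818). Probe set 1424985_a_at read 6.89, 7.06 and 6.83 against 7.19, 6.90 and 6.98, a difference of -0.10 (95% interval -0.33 to 0.14, limma adjusted p 0.739). Probe set 1425369_a_at read 5.02, 5.19 and 5.46 against 5.58, 5.52 and 5.35, a difference of -0.26 (95% interval -0.54 to 0.02, limma adjusted p 0.432). The largest of the 3 differences was thus towards lower values in the expressing arrays, with overlap through expressing replicate 3 and non-expressing replicate 3.

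Pmp22 encodes a membrane protein of compact myelin in nerve and is also made by many cells outside nerve. Its only probe set, 1417133_at, was at 9.41, 9.57 and 9.59 in the expressing and at 9.63, 9.42 and 9.47 in the non-expressing arrays. The groups overlapped, and the difference was 0.01 (95% interval -0.19 to 0.22, limma adjusted p 0.965).

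Cnp encodes an enzyme bound to the membrane of myelin-forming glia, 2′,3′-cyclic-nucleotide phosphodiesterase, and is transcribed at lower levels in other tissues. Probe set 1437341_x_at was at 8.39, 8.30 and 8.27 in the expressing and at 7.79, 8.54 and 8.60 in the non-expressing arrays. Non-expressing replicate 1 was the lowest and the other two non-expressing arrays were the highest, so the difference of 0.01 (95% interval -0.43 to 0.45, limma adjusted p 0.989) is the sum of opposite values. Without non-expressing replicate 1 it was -0.248 (limma adjusted p 0.255). Probe set 1418980_a_at was at 7.19, 7.04 and 6.97 against 6.79, 7.25 and 7.13, again with non-expressing replicate 1 the lowest of the 6 arrays, with a difference of 0.01 and of -0.119 without that array. Probe set 1449296_a_at read 6.44, 6.55 and 6.36 against 6.50, 6.56 and 6.55, a difference of -0.09 (limma adjusted p 0.7).

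Erbb3 encodes the neuregulin receptor of Schwann cells, which signals together with ERBB2 because its own kinase is weak. Probe set 1434606_at was at 8.09, 8.02 and 7.74 in the expressing and at 7.89, 8.24 and 8.13 in the non-expressing arrays, with overlap and a difference of -0.14 (95% interval -0.42 to 0.14, limma adjusted p 0.681). The dim probe set 1452482_at, under 5 in all arrays, differed by -0.09 (limma adjusted p 0.724).

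Ngfr encodes the low-affinity neurotrophin receptor p75, a marker of Schwann cells that make no myelin or have lost their axon, which is also found on some neurons and mural cells. Its 3 probe sets were all low, between 4.73 and 5.58, and overlapped between the groups. Probe set 1454903_at read 5.56, 5.47 and 5.55 against 5.56, 5.34 and 5.58, a difference of 0.03 (limma adjusted p 0.913). The others, 1421241_at and 1450177_at, differed by 0.01 and -0.07 (limma adjusted p 0.983 and 0.842), and at such levels a change in a small population of cells could be missed.

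**Figure D3:**
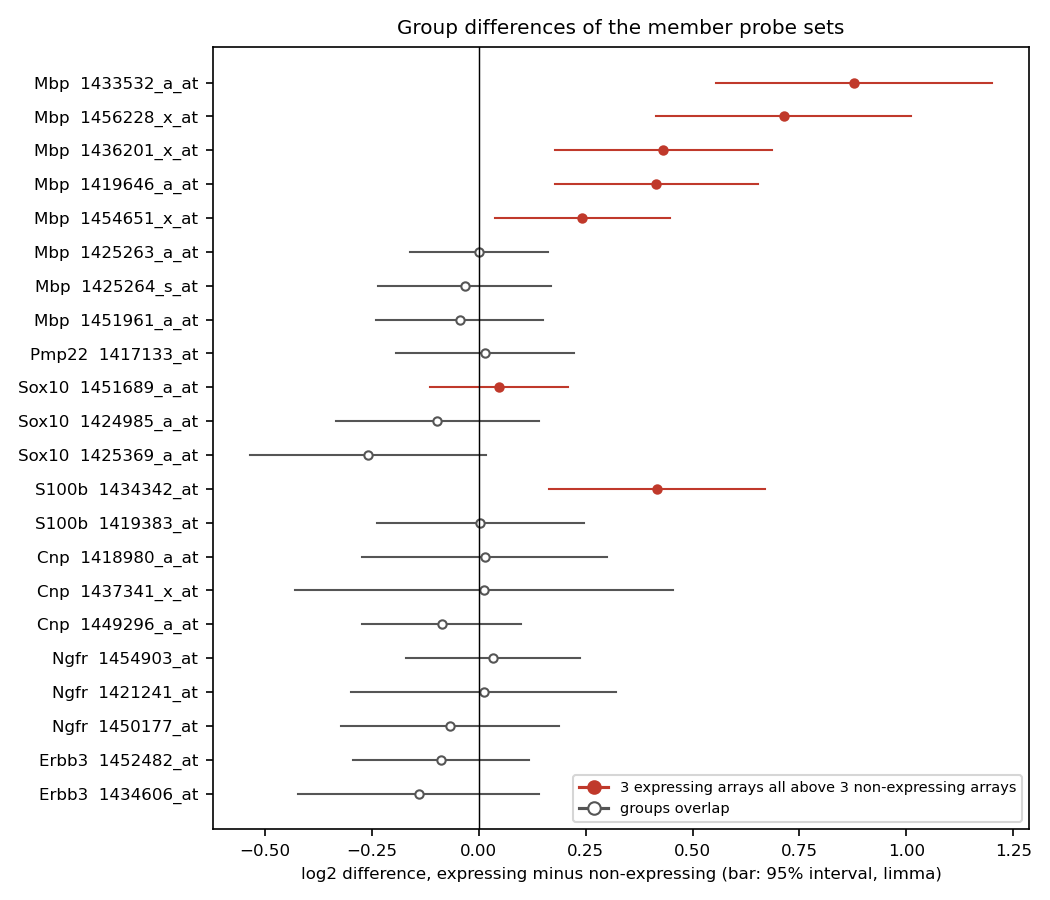
Log2 difference of each member probe set, expressing minus non-expressing, with its 95% interval from limma; filled red points mark probe sets on which all 3 expressing arrays lay above all 3 non-expressing arrays. Intervals of 5 Mbp probe sets and of 1 S100b probe set lie above 0 without adjustment for the number of probe sets, while no adjusted p is under 0.05.

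The arrays varied among themselves in ways that differed between members. Non-expressing replicate 1 was at either end of the 6 arrays on 11 of the 22 probe sets, against 45.4% of all probe sets. It was the highest array for Pmp22, for 2 probe sets of Sox10, for 1419383_at of S100b and for 1421241_at of Ngfr, and the lowest for 4 Mbp and 2 Cnp probe sets. Against the mean of the other two non-expressing arrays, replicate 1 differed by -0.382 on Mbp 1433532_a_at, by -0.78 on Cnp 1437341_x_at and by 0.183 on Pmp22. The probe sets of Mbp did not all lie the same way, with 0.055 on 1425264_s_at and 0.059 on 1451961_a_at.

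Other genes of Schwann cells were then examined, in lists of genes of the myelinating and of the non-myelinating, immature or repair states. Of 10 measured genes of the myelinating list, 0 passed over all genes, 4 were higher and 6 lower, and the median difference was -0.04, against -0.02 over all genes. Mag, a myelin adhesion molecule, was at 6.04, 6.20 and 6.20 in the expressing and 6.10, 6.18 and 6.13 in the non-expressing arrays, a difference of 0.01. Pmp2, a lipid-binding protein of peripheral myelin, differed by 0.02. Egr2, the transcription factor that switches on myelination, was dim, at 3.56, 3.81 and 4.24 against 4.57, 4.58 and 3.90, with overlap and a difference of -0.48 (SE 0.22, limma adjusted p 0.447 over genes). Fa2h, an enzyme that makes hydroxylated lipids of myelin, differed by -0.18 (limma adjusted p 0.514). Differences of both signs thus stood in this list, and by the brightest probe set of each gene none was without overlap. Mal, a proteolipid of myelin and of epithelia named after its values were seen, stood at 9.06 in non-expressing replicate 1, with the other 5 arrays at 7.78 to 8.03.

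Most genes of the non-myelinating list had positive differences, though none of them passed. Of 16 genes measured, 14 had a positive difference and 2 a negative one, against 44.0% positive over all genes, and the median difference was 0.21. Each gene was read by its brightest probe set only. On 6 of the 16 genes the 3 expressing arrays were all above the 3 non-expressing arrays, which holds for 8.16% of all genes. On 0 of them they were all below, which holds for 10.8%. With 1 array left out, 13 to 15 were positive and the median stayed between 0.18 and 0.25. The list was chosen with earlier results of these same arrays known, and this count over settings was added after seeing the data. These counts therefore describe the arrays and support nothing by themselves. The mean level of the list was 6.49 to 6.53 in the expressing and 6.31 to 6.35 in the non-expressing arrays. Cdh19, a cadherin largely restricted to the Schwann cell lineage, was at 7.09, 7.12 and 6.85 against 6.72, 6.48 and 6.36, a difference of 0.50 (SE 0.12, limma adjusted p 0.213). Scn7a, an atypical sodium channel gene of Schwann cells and other cells, was at 8.97, 9.05 and 9.10 against 8.61, 8.69 and 8.76, a difference of 0.35 (SE 0.08, limma adjusted p 0.208), and its second probe set, 1436043_at, differed by 0.37. The groups did not overlap on these probe sets of Cdh19 and Scn7a. On another, dimmer probe set of Scn7a, 1427495_at, they overlapped, at 5.82, 6.06 and 5.91 against 6.02, 5.73 and 5.72, with a difference of 0.10 (limma adjusted p 0.727).

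Several genes of this list are also used by neurons, muscle or fibroblasts, so their values do not speak for Schwann cells alone. L1cam, an adhesion molecule of axons and Schwann cells named after its values were seen, was at 6.84, 6.90 and 6.83 in the expressing and 6.56, 6.64 and 6.52 in the non-expressing arrays. Kcna1, a potassium channel gene of axons, had the largest difference of any probe set of the list and is named after its values were seen. Its probe set 1455785_at was at 7.13, 6.74 and 7.09 against 6.15, 6.20 and 6.11, a difference of 0.83 (SE 0.11, limma adjusted p 0.0758 over probe sets). Its other 3 probe sets overlapped between the groups, with differences of 0.25, 0.17 and -0.11. As with Mbp, the difference was carried by some probe sets of the gene and not by others.

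**Figure D4:**
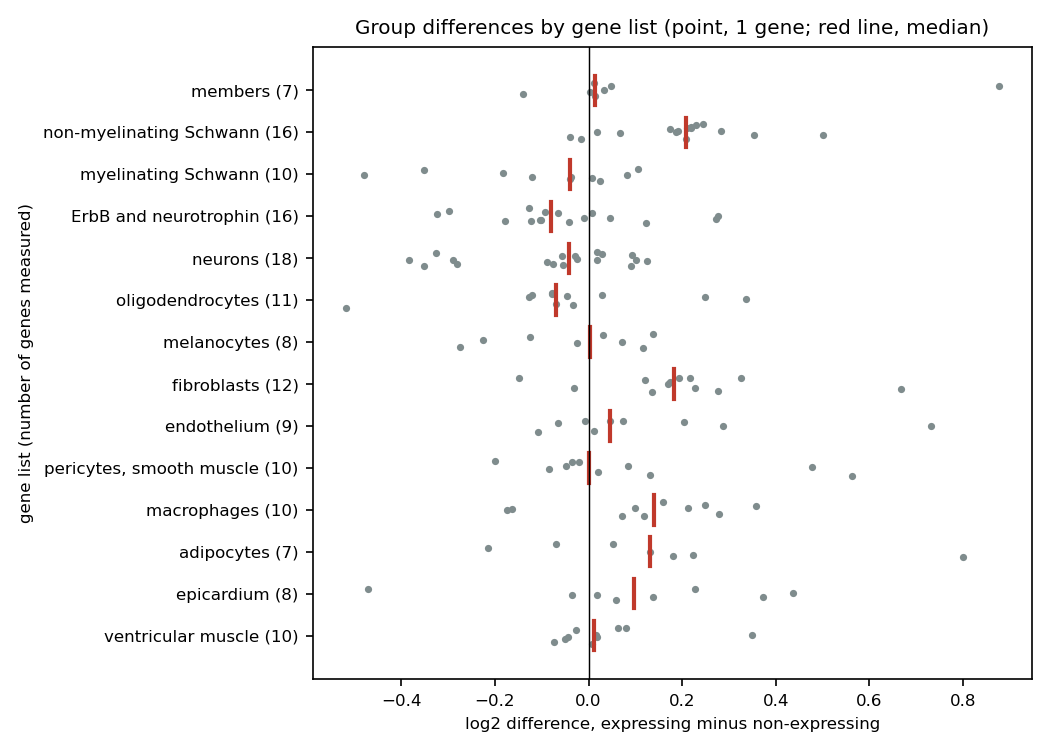
Each point is the log2 difference of 1 gene, expressing minus non-expressing, by its brightest probe set, and the red line is the median of the list, with the number of genes measured in brackets. The non-myelinating Schwann list (median 0.21) and the fibroblast list (median 0.18) lie to the right of 0. The macrophage, adipocyte and epicardium medians were 0.14, 0.13 and 0.10, and those of the other lists drawn lay between -0.08 and 0.05. Among these the myelinating list has its median at -0.04. Mbp is the lone member far to the right, read by a probe set that is its brightest only with the expressing arrays counted. Atrial genes, which reach 3.89, are not drawn.

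The partners of Erbb3 and Ngfr had differences of both signs. Of 16 measured ligands, receptors and processing enzymes, 0 passed, 5 were higher and 11 lower, with a median difference of -0.08. Nrg1, the neuregulin that axons present to Schwann cells, was dim at 3.80 to 3.97 in all arrays and differed by -0.07. Erbb2, the partner receptor, was at 7.36, 7.19 and 7.17 in the expressing and 7.22, 7.45 and 7.42 in the non-expressing arrays, a difference of -0.12 (limma adjusted p 0.656). Erbb4, another neuregulin receptor, was dim and differed by -0.18. Bdnf, a neurotrophin, was at 6.94, 6.99 and 7.10 against 7.37, 7.31 and 7.32, without overlap, and its difference of -0.32 (SE 0.08) did not pass (limma adjusted p 0.223). Lingo1, a co-receptor of p75, differed by -0.30 without overlap (limma adjusted p 0.321).

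Marker genes of the cells around the glia are given beside these results, and their part in them was not tested. Of 18 genes of peripheral neurons 0 passed, 7 were higher and 11 lower, with a median of -0.04 and a mean level of 4.79 to 4.91 in the expressing and 4.91 to 5.01 in the non-expressing arrays. Slc5a7, the choline transporter of cholinergic axons, differed by -0.35 and Stmn2, a neuronal tubulin regulator, by -0.33, both without overlap (limma adjusted p 0.298 and 0.368). Slc5a7 was dim, at 4.755 or lower in all arrays. Of 11 oligodendrocyte genes 3 were higher and 8 lower, and Mog, a defining myelin protein of that cell also named after its values were seen, differed by 0.03. The 2 lowest p in that list were those of Nkx2-2 and Nkx6-2, with differences of 0.34 and -0.52 (limma adjusted p 0.25 and 0.313). Nkx2-2 was dim, at 3.49 or lower in all arrays. Melanocytes share Sox10 and Erbb3 with Schwann cells, and of their 8 genes 4 were higher and 4 lower, with -0.27 for Dct and -0.23 for Tyrp1.

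Fibroblast genes, like the non-myelinating Schwann list, had mostly positive differences. Of 12 genes 10 were higher and 2 lower, with a median of 0.18 and a mean level of 10.5 to 10.7 against 10.4 in all non-expressing arrays, and none passed. Postn and Col3a1, which encode the matrix proteins periostin and collagen III, differed by 0.67 and 0.28 without overlap (limma adjusted p 0.255 and 0.339). Of 9 endothelial genes 6 were higher, with 0.73 for Vwf and 0.29 for Emcn. Of 10 pericyte and smooth muscle genes 5 were higher, with -0.20 for Kcnj8 and 0.56 for Tagln, and of 10 macrophage genes 8 were higher, with 0.36 for Mrc1 and -0.16 for Adgre1. Of 7 adipocyte genes 5 were higher, with 0.80 for Adipoq and 0.18 for Lep. Of 8 epicardial genes 6 were higher, with -0.47 for Tbx18 and 0.44 for Lrrn4, and of 10 ventricular muscle genes 6 were higher, with 0.35 for Ryr2 and 0.08 for Tnnt2. No gene of these lists passed over all genes.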

How the data were processed

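RNA of heart tissue (500 ng) was amplified, labelled with biotin and hybridised, per the labels. The authors deposited 1 log2 value per probe set and array. RMA and Partek 6.6 are named in the submitters' processing notes, with no role or order; background and filter settings were not stated there. Log2 was inferred from the range of values, 2.10 to 14.8. Sorted values of the arrays differ by at most 0.155, so a change of all genes together would not show.

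The 64 control probe sets were left out of the fit. Gene names come from the platform annotation (34945 probe sets with 1 symbol, 932 with several, 9160 with none) set against RefSeq of GRCm38.p6, with 0 changed. No coordinates or sequences were used. Groups were compared with limma 3.58.1 in R 4.3.3 (two-sided, 4 residual and 4.48 prior degrees of freedom). The same fit gave the p-values of 18193 genes, each by its brightest probe set. SE is moderated; intervals are at 95% and unadjusted. Checked on simulated data for this comparison over 45037 probe sets, the fit called 23.4% of changes of 0.5 and 92.5% of changes of 1. In each simulation 200 probe sets were changed, by 0.5, 1 or 2, and the scatter was independent. These shares rest on that setting and need not hold for the data, where 6 probe sets passed. Precision was limited by 3 arrays in each group.

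The members and lists were chosen with earlier results of these data known. From each list the genes past the threshold (at most 4) or the 2 with the lowest p were named, beside Mag, Pmp2, Egr2, Cdh19, Nrg1, Erbb2 and Erbb4; Mal, L1cam, Kcna1 and Mog were added after their values were seen. Some listed genes are not reported here. Alternatives were a dim filter, 3 other scalings, other priors, array weights, a random block for the title prefix (consensus correlation 0.117, statmod 1.5.0), leaving out some probe sets or each array, a looser threshold, and the mean of a gene's probe sets.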

Additional observations from a re-analysis of the deposited data

How the results depend on the processing

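No member probe set and no member gene passed 0.05 under any alternative run, or 0.1 in the fit as reported. Over probe sets, the adjusted p of Mbp probe set 1433532_a_at ranged from 0.0637 to 0.375 and its difference from 0.75 to 1.00. Over genes, the limma adjusted p of Mbp was 0.056 with the intensity trend and robust prior. All 5 Mbp probe sets above kept their direction in every setting in which they were tested. Most of this was fixed in advance. The 5 were grouped because their arrays did not overlap, so leaving out 1 array could not turn the sign. A change of the prior or of the other probe sets leaves the difference itself as it is. Also, 1456228_x_at, 1436201_x_at and 1454651_x_at were not tested with the dim filter or without _x_at and _s_at probe sets, because both settings leave them out. No paired analysis was made, because the labels name no pairs of arrays across the groups. Numbers in the titles were taken as names.

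Over all probe sets 6 passed. The count was 13 for probe sets with a mean of at least 5, 37 with an intensity trend and robust prior, 43 with array weights, 2 with ordinary statistics, 53 at a threshold of 0.1 and 0 to 44 with 1 array left out. Over genes 12 passed. That count was 4 with the prior estimated over genes, an alternative chosen after seeing the data, and 23 with trend and robust prior. It was 26 with array weights, 4 with a random block for the title prefix, 3 without _x_at or _s_at probe sets, 1 with ordinary statistics, 1 with the mean of all probe sets, 27 at 0.1 and 0 to 18 with 1 array left out. The median of the member probe sets lay between -0.033 and 0.028 with 1 array left out. The positive genes of the myelinating list, counted after seeing the data, were 2 of 7 with the dim filter and 2 to 6 of 10 with 1 array left out.

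Signs turned where differences were near 0. With quantile normalization they were -0.002 for 1418980_a_at and -0.001 for 1437341_x_at of Cnp, -0.001 for the gene Cnp and -0.015 for Mbp 1425263_a_at. With array weights the 2 Cnp probe sets were at -0.066 and -0.149, and the gene at -0.149. With the title prefix as a block S100b 1419383_at and its gene were at -0.003. With the mean of all probe sets Cnp was at -0.020, Ngfr at -0.008 and Sox10 at -0.103. With 1 array left out the ranges were -0.119 to 0.112 and -0.248 to 0.156 for these Cnp probe sets (the gene as the second), -0.009 to 0.014, -0.082 to 0.037 and -0.104 to 0.000 for Mbp 1425263_a_at, 1425264_s_at and 1451961_a_at, and -0.076 to 0.134, -0.137 to 0.037 and -0.043 to 0.075 for Ngfr 1421241_at, 1450177_at and 1454903_at (the gene as the last). They were -0.029 to 0.076 for Pmp22, -0.056 to 0.106 for S100b 1419383_at and its gene, and -0.048 to 0.054 for the gene Sox10. The cause was not tested, beyond fewer arrays or genes entering the fit.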

Other observations

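Genes whose values over the 6 arrays were most like those of 3 members were listed by the mean absolute difference of values centred on their own mean, among 11340 genes at a mean level of at least 6. For Mbp (1433532_a_at) the nearest were Kcnq1ot1, a long non-coding RNA of an imprinted locus, Cenpb, a centromere protein gene, and Wls, which encodes a carrier of secreted WNT proteins, at mean absolute differences of 0.123, 0.132 and 0.133. Their own group differences were 0.68, 0.75 and 0.71, and of these Cenpb passed over genes (limma adjusted p 0.0453). For Sox10 (1451689_a_at) they were Gli1, Atp5g3 and Abcf2, at 0.0084 to 0.01, and for Pmp22 they were Tfip11, Tnrc18 and Bet1l, at 0.013 to 0.0195. The likeness is a description over 6 arrays only. None of the 9 is on the Schwann cell lists.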
